A study of Arabidopsis thaliana with 6 samples.

Results

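The genes described are 5 pectin methylesterases of Arabidopsis thaliana, AT5G27870, AT5G07420, AT3G06830, AT4G15980 and AT5G49180, each read by a probe set paired with that gene alone. They are 5 of the 13355 genes that had a probe set of their own in the annotation used here, and 5 of the 44 such genes among 66 pectin methylesterase genes listed for comparison. They were chosen by name with their signals over all 6 arrays known: they are all 5 of the tested family genes that were called as changed between hydrated pollen and pollen tubes. Their levels and changes are therefore given as a description, with no p-value printed for any of them.

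Pectin methylesterases remove methyl groups from homogalacturonan, the pectin that is secreted in methylated form at the tip of a growing pollen tube. De-methylated pectin can bind calcium and stiffen the wall or be cut by polygalacturonases and pectate lyases, and the balance between soft tip and firm shank is a classic feature of tube growth. Many members of the family carry an inhibitor-like domain ahead of the catalytic domain, as AT5G27870, AT3G06830, AT4G15980 and AT5G49180 do, whereas AT5G07420 is of the short type without it. AT5G49180 is otherwise known from the mucilage of the seed coat.

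Transcripts were measured on Affymetrix ATH1 arrays, in which labelled RNA of 1 sample binds to short oligonucleotide probe sets, in pollen of ecotype Columbia from 50-day-old plants at 3 stages with 2 biological replicates each. Dry mature pollen was taken by vacuum from flowers with newly opened anthers. For the other stages, flowers were vortexed in sucrose medium and the pollen was spun down and incubated as a thin layer at 25 °C, for 45 min in hydrated pollen and for 4 h in pollen tubes. Tubes of about 150 µm were kept on a 50 µm mesh. A germination of 70 to 75% was stated for both hydrated pollen and tubes. Hydration and the change of collection method therefore cannot be told apart, and neither can tube growth and retention on the mesh. The same amount of RNA, 8 µg, was used for each array, so values are relative to the other transcripts of a sample, and fewer cells of a type and less of a transcript per cell cannot be told apart.

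Signal is in arbitrary units on a linear scale. Array medians lay between 14.0 and 24.3, and the 60th percentile of each array, used as the limit of background, between 19.7 and 34.1. A probe set was tested if it exceeded that percentile on at least 2 of the 6 arrays, which 11412 of 22746 did, all 5 described genes among them. A change was called at a Benjamini-Hochberg adjusted p under 0.05 in limma over all tested probe sets. The pollen markers were bright, among them the receptor kinases ANX1 (2716.3 to 5685.7) and ANX2 (7308.1 to 8838.4) and the polygalacturonase AT3G07820 (23534.2 to 42491.4). No marker with a probe set of its own was called in any comparison. ANX1 was read higher in tubes than in mature pollen without overlap, by 0.90 ± 0.28 on the log2 scale (limma adjusted p = 0.0888). The sperm histone MGH3 was read at 2442.5 and 1430.7 in mature pollen, 2343.1 and 1316.2 in hydrated pollen and 1362.3 and 886.1 in tubes, a difference from mature pollen to tubes of -0.77 ± 0.40 without overlap (limma adjusted p = 0.346). The part of such shifts in the results below was not tested. Of the markers of other tissues with a probe set of their own, RCA of photosynthesis reached at most 47.2, the 2 floral markers at most 50.8 and the 2 tapetum markers at most 29.2.

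Transcripts of 4 of the 5 genes were abundant in dry pollen, lower after hydration and lowest in tubes, and AT5G49180 went the other way in tubes. AT5G07420 was read at 24930.0 and 16412.7 on the 2 arrays of mature pollen, at 10361.4 and 9960.0 in hydrated pollen, and at 2482.6 and 2089.0 in tubes. Every mature array lay above every hydrated array, and every hydrated array above every tube array. The stage means were 20671 ± 6023 (SD, n = 2), 10161 ± 284 and 2286 ± 278, so that hydrated pollen held 49.2% and tubes 11.1% of the mature mean. Within hydrated pollen and within tubes the arrays lay close together.

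AT5G27870 was read at 5020.0 and 12565.6 in mature pollen, at 4201.5 and 4863.5 in hydrated pollen, and at 536.9 and 1006.4 in tubes. The stages kept the same order without overlap, but the mature arrays were far apart, and the lower of them stood close to the higher hydrated array. Its means were 8793 ± 5336 (SD, n = 2), 4533 ± 468 and 772 ± 332. The gap between hydrated pollen and tubes was much wider than the spread within either stage.

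AT3G06830 was read at 10129.6 and 7719.8 in mature pollen, at 4620.5 and 3064.1 in hydrated pollen, and at 550.0 and 1072.1 in tubes. Here too no array of a later stage reached the lowest array of the stage before it. The means were 8925 ± 1704 (SD, n = 2), 3842 ± 1101 and 811 ± 369, and the tube mean was 9.09% of the mature mean.

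AT4G15980 was read at 1924.1 and 3032.0 in mature pollen, at 959.2 and 1013.1 in hydrated pollen, and at 247.3 and 404.1 in tubes. Its arrays again fell in the order mature, hydrated, tube with no overlap. Means were 2478 ± 783 (SD, n = 2), 986 ± 38.1 and 326 ± 111. Hydrated pollen held 39.8% of the mature mean, the lowest share among the 4 genes, and tubes held 13.1%, the highest.

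AT5G49180 was read at 56.5 and 40.9 in mature pollen, at 26.2 and 2.3 in hydrated pollen, and at 156.9 and 249.5 in tubes. Both hydrated arrays lay below the 60th percentile of their array, so the hydrated level is only a bound, whereas mature and tube arrays all lay above it. The means were 48.7 ± 11.0 (SD, n = 2) in mature pollen and 203 ± 65.5 in tubes. The transcript was thus at or near background in grains, and every tube array stood above every grain array. It passed the filter on 4 of 6 arrays, while the other 4 genes lay far above background on all 6.

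**Figure D1:**
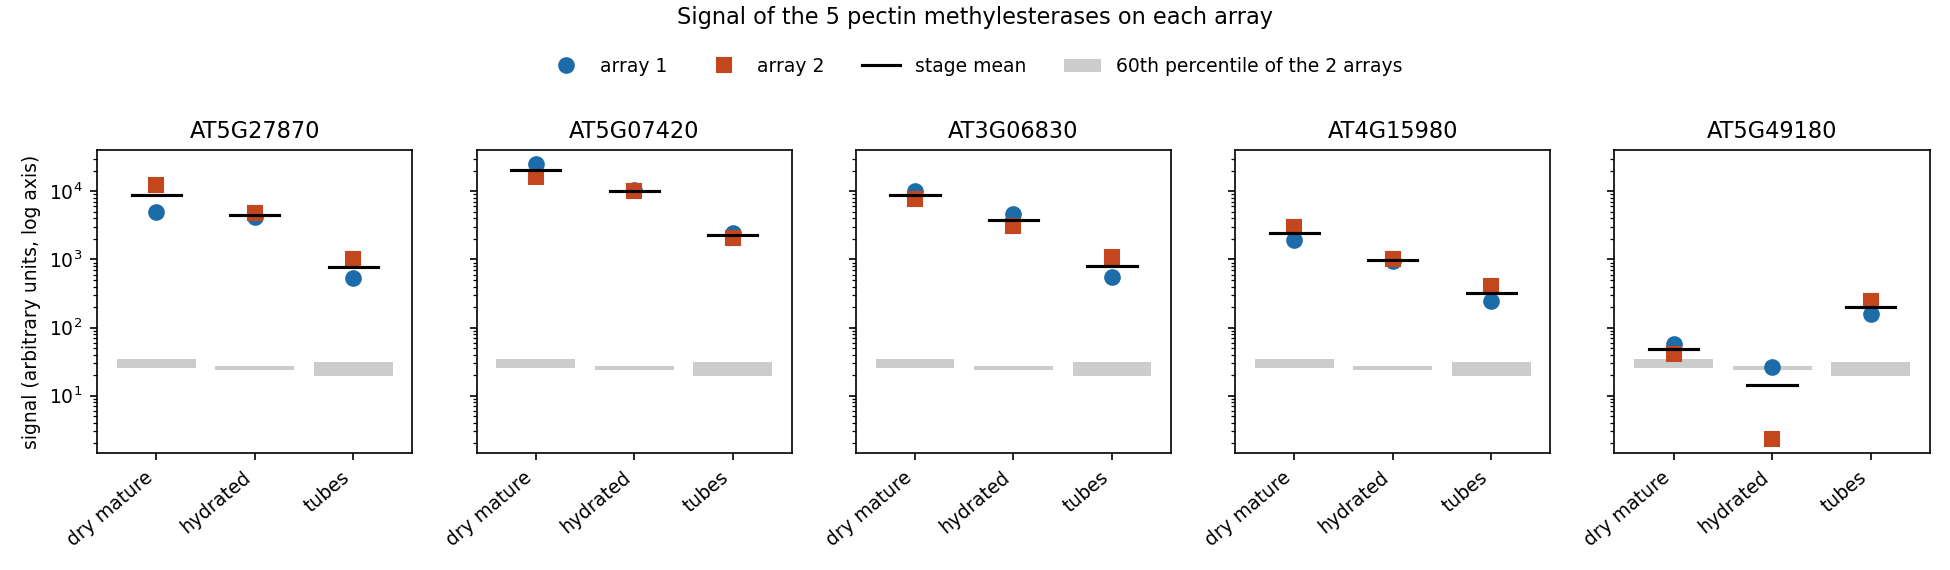
Signal (arbitrary units, log axis) of the 5 pectin methylesterases on each array of dry mature pollen, hydrated pollen and tubes. Points are arrays, lines the means of 2 arrays and grey bands the range of the 60th percentiles of the 2 arrays; AT5G27870, AT5G07420, AT3G06830 and AT4G15980 descend from stage to stage, and AT5G49180 reaches 156.9 and 249.5 in tubes.

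Between mature and hydrated pollen, all 5 transcripts read lower after hydration and none of the 5 passed the test in limma. Over all tested probe sets, 0.578% were called in this comparison. An unadjusted p under 0.05 was met by 4 of the 5, from which nothing is read, and by 705 of the 11412 tested probe sets. The log2 difference, hydrated minus mature, was -0.81 ± 0.45 (SE) for AT5G27870, -0.99 ± 0.31 for AT5G07420, -1.23 ± 0.38 for AT3G06830 and -1.29 ± 0.35 for AT4G15980. All 4 lie between a 1.76-fold and a 2.45-fold lower level. For AT5G27870 the 4 differences between single arrays ran from -1.58 to -0.05, so that the choice of mature array decided the size of this step. Without the second mature array its difference was -0.15, and without the first -1.48. For AT5G49180, mature pollen was at least 1.89-fold above hydrated pollen. The arrays of the 2 stages did not overlap for any of the 5 genes, all lower in hydrated pollen, a separation that 18.0% of tested probe sets had in that direction.

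Between hydrated pollen and tubes, 4 of the 5 transcripts fell and AT5G49180 rose. Over all tested probe sets, 4.57% were called, 2.03% as lower and 2.54% as higher, and nothing is read from the comparison with the 5 genes because this contrast chose them. AT5G27870 fell by 2.62 ± 0.45 on the log2 scale (SE), 6.15-fold. AT3G06830 fell by 2.29 ± 0.38, 4.90-fold, and AT5G07420 by 2.16 ± 0.31, 4.46-fold. AT4G15980 had the smallest change, 3.12-fold, a fall of 1.64 ± 0.35 on the log2 scale. The ranges of the differences between single arrays were -2.31 to -2.00 for AT5G07420, -3.18 to -2.06 for AT5G27870, -3.07 to -1.52 for AT3G06830 and -2.03 to -1.25 for AT4G15980. The ranges of AT5G27870 and AT4G15980 did not overlap, those of every other pair did, and differences between genes in the size of the fall were not tested. Tubes were at least 7.78-fold above hydrated pollen for AT5G49180. Arrays did not overlap for any of the 5, beside 23.1% of tested probe sets apart with tubes lower and 20.0% with tubes higher.

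Calls at the tube step were lost when 1 hydrated or tube array was left out, among the 5 genes and over all tested probe sets. In these refits a lone array is assumed to vary like the other stages. Over them the fitted log2 change ran from -3.07 to -2.17 for AT5G27870 and from -2.28 to -2.03 for AT5G07420. It ran from -2.77 to -1.81 for AT3G06830 and from -1.995 to -1.29 for AT4G15980, and AT5G49180 rose in each. Among the refits without 1 array, AT5G07420 lost its call only without the second tube array. Leaving out either mature array kept the count at 5, and scaling each array to a common 75th percentile gave 3. Without the intensity trend in the moderated test, 0 of the 5 were called at this step, and 0 of all tested probe sets, with 1494 at an unadjusted p under 0.05.

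**Figure D2:**
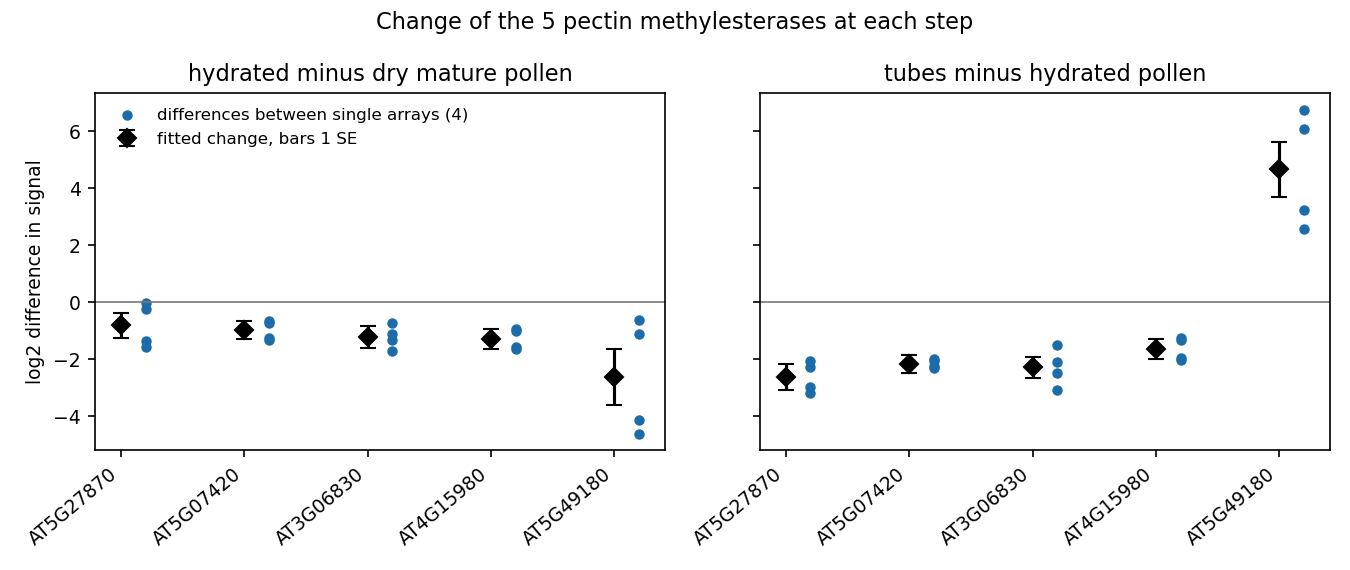
Change in log2 signal of each pectin methylesterase at the hydration step (left) and the tube step (right). Diamonds are fitted changes with bars of 1 SE, and points are the 4 differences between single arrays; all points lie below 0 except those of AT5G49180 at the tube step.

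From mature pollen to tubes, AT3G06830 fell 11.5-fold, a log2 change of -3.53 ± 0.38 (SE). AT5G27870 fell 10.8-fold (-3.43 ± 0.45), AT5G07420 8.88-fold (-3.15 ± 0.31) and AT4G15980 7.64-fold (-2.93 ± 0.35). These 4 were called (2 of them without the intensity trend), where 7.9% of all tested probe sets were called, 3.29% as lower and 4.61% as higher. The tube arrays also entered the contrast that chose the genes, so nothing is read from their calls beside these shares. AT5G49180 was 4.12-fold higher in tubes than in mature pollen, 2.04 ± 0.97 on the log2 scale, and did not pass the test, although its arrays did not overlap. Tube arrays lay wholly below mature arrays for 25.2% of tested probe sets and wholly above them for 20.8%. This comparison is the sum of the other 2 and shares their arrays.

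In each of the 4 falling transcripts, the fitted decline at the tube step was larger than that at hydration. The genes were chosen by their call at the tube step, which favours this order and raises the shares below, so nothing is read from it. The tube step made up 76.3% of the whole log2 decline for AT5G27870, 68.5% for AT5G07420, 65.0% for AT3G06830 and 55.9% for AT4G15980. For AT4G15980 the fitted differences at the 2 steps were within 1 SE of each other. The distance between the mature arrays of AT5G27870 limits its share, and the differences between genes in this share were not tested. Over all tested probe sets, 3.53% had mature above hydrated above tube arrays with no overlap at either step, and in the family that order was also met by AT4G03930, which stayed near background at 41.2 or less.

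Across the 6 arrays, the log2 signals of the 4 falling genes had Pearson coefficients of 0.897 to 0.971 with each other, and AT5G49180 had -0.587 to -0.425 with them. These points share the same arrays and stage differences, and the values are a description. Among 6506 other tested single-gene probe sets, the pattern nearest to AT5G07420 was that of AT5G10650 (r = 0.999), followed by AT3G46240 (0.998) and AT4G15660 (0.996). For AT3G06830 it was AT3G20200 (0.995), AT2G28080 (0.995) and AT4G03620 (0.993). AT4G15980 was nearest to AT3G54240 (0.996), AT1G27700 (0.995) and the F-box gene AFR (0.994). For AT5G27870 the nearest were AT1G50290 (0.993), AT1G15490 (0.988) and AT1G24620 (0.986). AT5G49180 had less close neighbours, AT4G35985 (0.972), AT3G51250 (0.966) and AT1G12180 (0.960). These coefficients for AT5G49180 rest in part on signals below background. Its own hydrated arrays lay there, as did the means of AT4G35985 in hydrated (6.4) and mature pollen (14.8). For AT1G12180 these means were 4.7 and 14.85. The coefficients of AT4G15660 and AT3G46240 with AT5G07420 rest in part on tube signals below background (means 1.3 and 17.75). The mean of AT4G15660 was below it in hydrated pollen as well (22.75). None of these 15 genes belongs to the pectin methylesterase list, and a likeness of shape does not mean a change of equal size: AT1G24620 changed by -0.60 at the tube step, where AT5G27870 changed by -2.62.

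AT5G07420 stands between 2 other pectin methylesterases on chromosome 5, AT5G07410 and AT5G07430, with no other protein-coding gene between them in the reference table. All are of the short type, and AT5G07410 has been studied in pollen germination. AT5G07430 has a probe set of its own and was read at 15295.7 and 28467.7 in mature pollen, 13475.8 and 26925.9 in hydrated pollen and 12716.8 and 20692.7 in tubes. Its stages overlapped throughout, and its change at the tube step was -0.23 ± 0.45 on the log2 scale (limma adjusted p = 0.903). As a share of its own mature mean, AT5G07430 stood at 58.1% and 94.6% on the tube arrays, and AT5G07420 at 12.0% and 10.1%. Set against AT5G07430 within each array, the log2 signal of AT5G07420 changed by -0.86 at hydration and by -1.93 at the tube step. From its mature mean, this difference lay at 0.75 and -0.75 on the mature arrays and at -0.33 and -1.39 on the hydrated arrays, which overlap. On the tube arrays it lay at -2.31 and -3.26. AT5G07420 was chosen by its call at the tube step, which favours such a gap, so nothing is read from its size.

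AT5G07410 is read only by a probe set that also matches PPME1, a pectin methylesterase needed for regular tube shape, so the signals of the 2 genes cannot be told apart. That probe set stood at 67.5% and 60.8% of its mature mean on the tube arrays, with a tube-step change of -0.35 ± 0.30 (limma adjusted p = 0.704). Relative to it, AT5G07420 changed by -0.70 at hydration and by -1.81 at the tube step, where the same limit of choice holds. Similar genes such as these may share part of the hybridisation signal, and this was not tested.

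**Figure D3:**
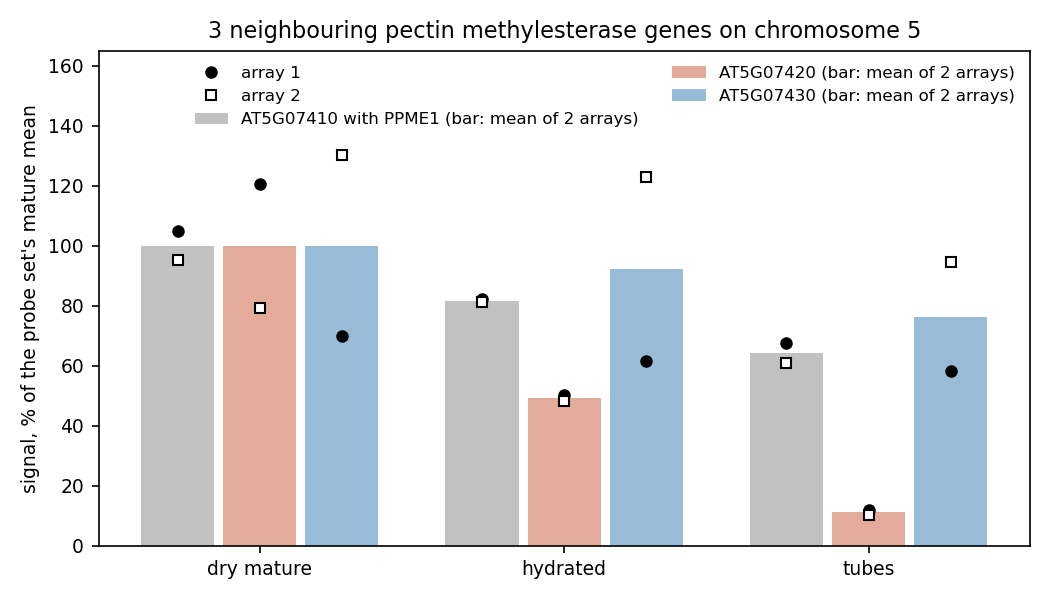
Signal of 3 neighbouring probe sets of the pectin methylesterase cluster on each array, as a percent of each probe set's own mean in mature pollen. AT5G07420, chosen by its call at the tube step, drops to 12.0% and 10.1% in tubes. AT5G07430 (58.1% and 94.6%) and the probe set shared by AT5G07410 and PPME1 (67.5% and 60.8%) stay higher.

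Most other measured members of the family were either steady and abundant or near background. Of the 23 other tested genes, 0 were called between mature and hydrated pollen by limma (0 at an unadjusted p under 0.05), beside 0.578% of all tested probe sets. Between hydrated pollen and tubes 0 were called as well (2 at an unadjusted p under 0.05). That count was fixed when every family gene called at this step was described above, so nothing is read from it. The 6 with signals above 500 on every array, a limit set after the values were seen, were AT2G26450, AT3G05610, AT3G17060, AT5G07430, AT4G33230 and AT5G64640. AT2G26450 was read between 15623.5 and 20577.8, AT3G05610 between 14411.3 and 23370.4 and AT3G17060 between 17020.6 and 22697.3. Their tube-step changes were -0.28, -0.18 and -0.16 on the log2 scale. AT4G33230 ranged from 785.4 to 3427.3 and changed by -0.95 ± 0.57 (limma adjusted p = 0.524), and AT5G64640 from 678.1 to 881.2 with a change of 0.08. The probe set shared by VGD1, known for tube growth through the style, and VGDH1 was read between 20925.4 and 36843.4 and changed by -0.26 ± 0.34 (limma adjusted p = 0.838).

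The other 17 tested genes stayed at or below 156.1 on every array. AT2G47550 was read at 100.2 and 77.7 in mature pollen, 66.9 and 83.5 in hydrated pollen and 23.7 and 19.9 in tubes. It fell from mature pollen to tubes by 2.02 ± 0.52 on the log2 scale (limma adjusted p = 0.0407), a call lost when any 1 array was left out, and was not called at the tube step (-1.78 ± 0.52, limma adjusted p = 0.0953). AT3G05620, next to AT3G05610 on the chromosome, was read between 47.5 and 62.0 in grains and at 156.1 and 97.4 in tubes, a tube-step change of 1.15 ± 0.49 (limma adjusted p = 0.292). AT4G02320 and AT4G02330, also adjacent, were below background in hydrated pollen and were not called. AT4G02320 was read at 45.6 and 23.4 in tubes, at least 1.28-fold above hydrated pollen, and AT4G02330 at 41.7 and 7.0, for which no fold is given. AT1G02810, AT2G43050, AT3G43270, AT3G49220, AT3G59010, AT4G02300, AT4G03930, AT5G04960, AT5G09760, AT5G18990, AT5G51490, AT5G51500 and AT5G53370 read at most 83.1 and none was called in any comparison.

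Over these 23 genes the median log2 change was -0.11 at hydration, -0.19 at the tube step and -0.27 from mature pollen to tubes, beside -0.02, -0.06 and -0.12 over all tested probe sets. Every family gene called at the tube step had been taken out before these medians. A further 16 listed genes with a probe set of their own did not pass the filter and reached at most 63.2. Of the rest of the list, 4 genes were read only in shared probe sets and 18 were unnamed here.

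**Figure D4:**
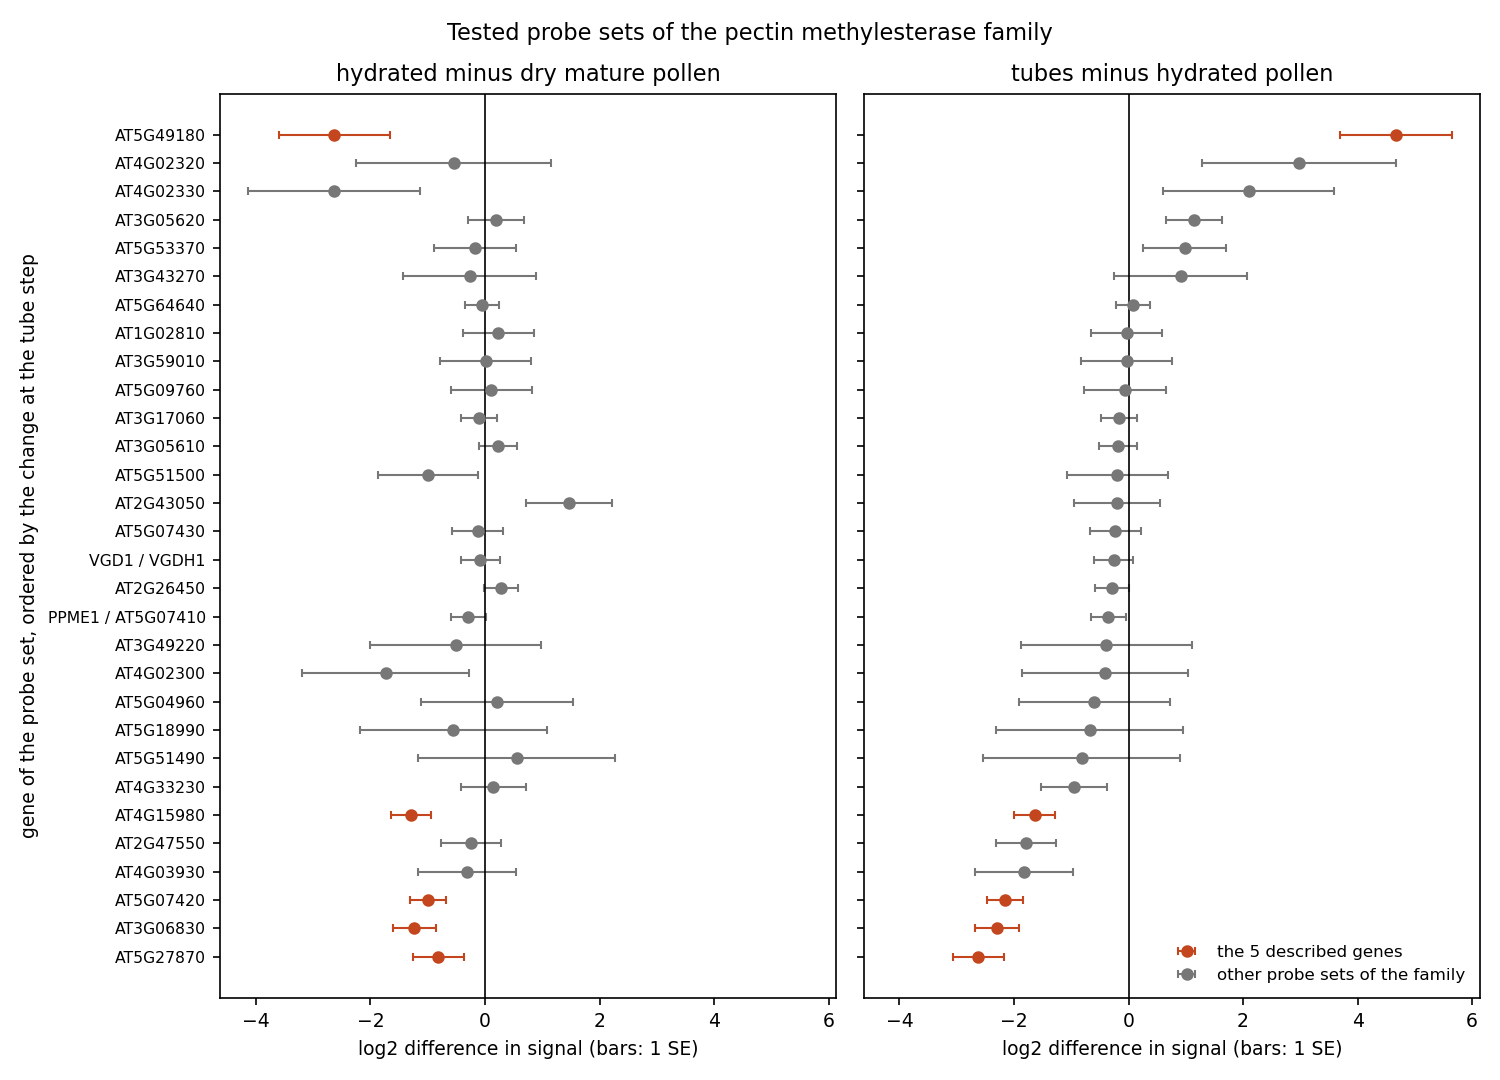
Log2 change of each tested probe set of the pectin methylesterase family at the hydration step (left) and the tube step (right), with bars of 1 SE, ordered by the change at the tube step. The 5 described genes are in red; most other probe sets with short bars lie near 0, and those with long bars are near background.

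Many proteins of the inhibitor family bind and block pectin methylesterases. Of 12 tested genes of this family, 0 were called by limma at hydration (1 at an unadjusted p under 0.05) and 0 at the tube step (2 at an unadjusted p under 0.05). Over all tested probe sets, 0.578% and 4.57% were called at these steps. From mature pollen to tubes 2 of the 12 were called as lower, beside 3.29% of all tested probe sets. AT2G10970, named after its values were seen, was read at 2419.2 and 2291.0 in mature pollen, 1279.5 and 645.3 in hydrated pollen and 549.8 and 424.0 in tubes. It fell by 2.29 ± 0.36 on the log2 scale from mature pollen to tubes (limma adjusted p = 0.00295), in the same stage order as AT5G27870, AT5G07420, AT3G06830 and AT4G15980. AT2G47340 was read at 7401.7 and 5962.2 in mature pollen, 5287.5 and 4256.7 in hydrated pollen and 2624.0 and 2037.2 in tubes. Its arrays also fell in the order mature, hydrated, tube without overlap. From mature pollen to tubes it fell by 1.52 ± 0.30 (limma adjusted p = 0.0107), a call that some refits without 1 array did not keep. The abundant AT1G10770, AT4G24640 (APPB1) and AT5G50030 changed by -0.36, -0.32 and -0.19 from mature pollen to tubes and were not called.

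Polygalacturonases and pectate lyases cut de-methylated pectin. Of 19 tested genes, 0 were called by limma at hydration (0 at an unadjusted p under 0.05). At the tube step 1 was called as higher and 1 as lower, beside 2.54% and 2.03% of all tested probe sets. The riser was AT5G09280, read at 34.6 and 1.5 in mature pollen, 5.8 and 22.0 in hydrated pollen and 1670.1 and 1832.0 in tubes, at least 68.8-fold above hydrated pollen (limma adjusted p = 0.00658). AT5G49180 and AT5G09280 thus both rose at the tube step from levels at background. AT3G24670, read between 89.0 and 107.5 in grains and at 13.8 and 27.6 in tubes, fell by 2.28 ± 0.54 on the log2 scale (limma adjusted p = 0.0401). From mature pollen to tubes AT5G09280 was called as higher, beside 4.61% of all tested probe sets. AT3G24670 (-2.33, limma adjusted p = 0.0257) and AT3G07840 (-2.02, limma adjusted p = 0.0266) were called as lower, beside 3.29%. Each of these calls of AT3G24670 and AT3G07840 was lost under several other settings. The 4 brightest genes of this list, AT3G07820, AT3G01270, AT5G48140 and AT2G02720, changed by -0.27, -0.28, -0.46 and -0.26 from mature pollen to tubes and were not called. AT5G09280, AT3G24670 and AT3G07840 were named after their values were seen.

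Few genes of pectin synthesis and acetylation could be read. Of 19 listed genes of homogalacturonan synthesis and methylation, 2 were tested, AT3G49720 and AT3G58790, and of 11 pectin acetylesterases 3 were tested, AT1G57590, AT3G09405 and AT3G09410. None of these 5 genes was called by limma in any comparison, the lowest adjusted p being 0.248. All stayed at or below 117.5, and only AT3G49720 lay above background on all 6 arrays.

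**Figure D5:**
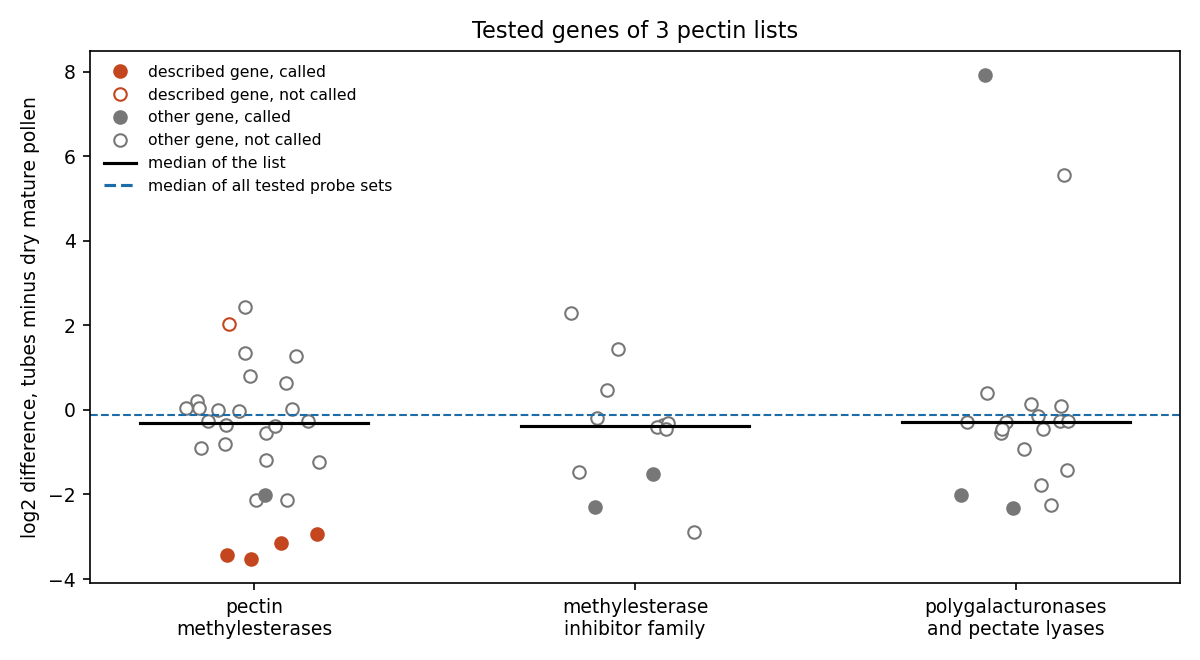
Log2 difference in signal between tubes and dry mature pollen for the tested genes of 3 pectin lists, 1 point per gene, filled where called, with black lines for the median of each list and a dashed line for that of all tested probe sets (-0.12). The 4 called described genes, in red, lie from -3.53 to -2.93. The tube arrays also entered the contrast that chose them, so nothing is read from their place. Next to them is AT2G01610 of the inhibitor family at -2.90 ± 1.36 (SE), not called and with tube signals below background. AT5G49180 is the open red point at 2.04, and AT5G09280 the filled point at the top right.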

How the data were processed

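The deposited values are linear signal intensity, 1 per probe set and array, made by the authors with GCOS 1.0 and MAS5 per the submitters' processing notes. Trimming the lowest and highest 2% of values left array means of 100.02 to 100.03. No source used here names the array's genome build, so coordinates are not printed. Detection calls were not used.

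Of 22810 probe sets, 64 controls were left out. Probe sets were named through the platform annotation and the TAIR10.1 RefSeq gene table: 13513 had 1 gene, 503 several and 8730 were unnamed here. Signals were floored at 0.1 and taken to log2. In limma 3.58.1 (R 4.3.3), 1 mean per stage was fitted over all 6 arrays with 3 residual degrees of freedom and a two-sided moderated test with an intensity trend, adjusted over the 11412 tested probe sets. The fit was tested on simulated data. "At least" sets the bright stage's mean against the 60th percentile, or the probe set's own value where higher, of the arrays of a stage below it.

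The described genes and the gene lists were chosen with earlier results of these data known. By rule the text names the 5 genes, the other tested genes of their family, up to 4 of the brightest genes of each other pectin list, and the 3 probe sets nearest in pattern to each described gene; exceptions are stated. Other scalings, floors, an offset of 16, no filter, no intensity trend, the replicate number as a block, single arrays left out, and fits of only the 2 stages compared were tried. Precision is limited by having only 2 arrays at each stage.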

Additional observations from a re-analysis of the deposited data

How the results depend on the processing

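Of 210 recomputed changes of the 5 pectin methylesterases (15 changes under 14 other settings), 181 kept their direction and their side of the threshold, 22 lost the call, 7 gained one and 0 turned. At hydration 0 were called, and 4, all lower, with the replicate block, under which 293 of all tested probe sets were called as higher and 128 as lower. Deviations of arrays with the same number correlated at 0.174, 0.185 and 0.221 between stages, but the labels give no shared origin, so this pairing is only a hint from the data. The block also took the other family members from 0 to 2 calls at the tube step and from 1 to 3 between mature pollen and tubes. With it, 14.4% and 18.9% of all tested probe sets were called in these comparisons. At the tube step the 5 calls became 3 with each array scaled to a common 75th percentile and 0 without the intensity trend, and 1 to 5 with single arrays left out. From mature pollen to tubes the 4 calls became 2 without the trend and stayed at 4 with any single array left out. AT5G49180 was called in that comparison with a floor at the 60th percentile (2.04), with an offset of 16 (1.74) and with only those stages fitted (2.04). Scaling to the 75th percentile moved the median of all tested probe sets at hydration from -0.02 to 0.08, and the calls from mature pollen to tubes from 526 higher and 375 lower to 443 and 198. Outside the 5 genes, AT3G09410 turned to 0.079 at the tube step without the first hydrated array (single arrays left out, -2.55 to 0.079). AT4G33230 turned to 0.092 between mature pollen and tubes without the second mature array (-1.70 to 0.092). Other genes that were not called turned as well. Between mature pollen and tubes, AT3G49720 went from -0.13 to 0.38 without the first mature array. AT3G58790 went from 0.87 to -1.32 without the second. The cause was not tested. All 15 genes named for likeness of pattern had a Spearman coefficient of at least 0.9, but signals below the 60th percentile have no order, so this says little for AT5G49180, AT4G15660 and AT3G46240.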

Other observations

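Several family members kept the same order of the replicate arrays in all 3 stages. AT5G07430 was higher on the second array than on the first in every stage, 28467.7 against 15295.7 in mature pollen, 26925.9 against 13475.8 in hydrated pollen and 20692.7 against 12716.8 in tubes. AT4G33230 did the same, with 3427.3 against 990.6, 3045.0 against 1368.2 and 1418.9 against 785.4. AT5G27870, AT4G15980, AT2G26450, AT3G05610 and AT3G17060 were higher on the second array in all 3 stages as well. AT5G07420 and the shared probe sets of PPME1 and VGD1 were higher on the first. AT3G06830 and AT5G64640 kept no single order. Over all tested probe sets, 16.7% were higher on the second array in every stage, 27.6% were higher on the first, and 4.28% were at least 1.5-fold higher on the second in every stage.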
